A study of Mus musculus with 22 samples.

Results

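Transplanted Vav knockout thymocytes were compared with untransplanted Vav knockout thymocytes, both from mice 8 weeks of age. The comparison used the 7 libraries that the labels call TPT (4) and VcKO at 8 weeks (3), of 22 libraries in the whole series. TPT mice were VavCre E2aF/F animals that had been sublethally irradiated and transplanted with competitor bone marrow cells of wild-type origin, and their thymocytes were taken 4 weeks after transplantation. VcKO mice had the same VavCre E2aF/F genotype and no treatment. Values of the 3 untreated E2aF/F controls of that age, which the labels call WT (V), stand beside them for orientation and enter no test. All libraries were made from CD45.1+ CD4+CD8+ thymocytes. Vav-driven Cre is active across blood lineages, so deletion was not limited to T cells. The labels do not say which cells of the transplanted mice carry CD45.1. They do not tie replicates to animals. The p-values therefore describe the spread among libraries, which may be technical. In RNA from bulk cells, fewer cells of a type and less RNA per cell cannot be told apart.

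E2a, whose gene symbol is Tcf3, encodes E12 and E47, E proteins that direct early B and T cell development and restrain the growth of thymocytes before they carry a working T cell receptor. CD4+CD8+ double-positive thymocytes have rearranged the beta chain of the receptor, have proliferated and are rearranging the alpha chain. In a healthy thymus, progenitors that keep arriving from bone marrow displace older cells, which is called thymocyte competition. The title of the series asks about the loss of that competition in mice without E2a, which develop T cell leukaemia. Giving knockout mice wild-type marrow restores competitors, and the comparison asks how knockout cells differ after that treatment.

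Values were FPKM, fragments counted per kilobase of a gene and per unit of sequencing depth. Of 43430 genes, 11085 reached 1 FPKM in at least 3 of the 7 libraries and were tested with limma on log2(FPKM + 1). Low values implied 13.6 to 20.4 M (mega) reads per TPT library and 14.4 to 19.2 M reads per VcKO library. The highest, 20.4 M, was for TPT replicate 3, where values worth 1 read were rare, so its depth is uncertain. Tcf3 (mm10 chromosome 10, 80409514 to 80433647, minus strand) was at 1.22, 1.31, 2.32 and 1.21 FPKM in TPT replicates 1 to 4 and at 2.13, 1.23 and 2.01 FPKM in VcKO replicates 1 to 3, against 7.49 to 7.59 FPKM in controls. The targeted gene was therefore low in all 7 libraries, and the 2 knockout groups overlapped (log2 fold change -0.16, SE 0.22, limma adjusted p = 0.991). Whether the remaining reads came from the deleted exons cannot be seen in values per gene.

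The labelled cell type was checked by its markers. Cd4 was at 96.8 to 389 FPKM in TPT and 163 to 186 FPKM in VcKO libraries, and Cd8a at 157 to 393 and 295 to 316 FPKM. Rag1, the recombinase of receptor genes, was at 228 to 767 and 330 to 453 FPKM. Controls were higher, at 410 to 460 FPKM for Cd4, 471 to 533 FPKM for Cd8a and 1022 to 1088 FPKM for Rag1. Rag2, which acts with Rag1, was at 1.84 to 13.2 FPKM in TPT and 4.53 to 5.93 FPKM in VcKO. In controls it was at 59.4 to 63 FPKM. The B cell factors Pax5 and Ebf1 were listed at or near 0 in all 7 libraries. So were Mpo of granulocytes and Foxn1 of thymic epithelium. Some other markers of B cells, macrophages and stroma were not. Ighm was at 94.9 to 128 FPKM in the 7 libraries and 178 to 213 FPKM in controls. Igkc reached 68.4 FPKM and Lyz2 16.1 FPKM in TPT replicate 3, and Pecam1 14.8 FPKM in VcKO replicate 1. The markers therefore do not exclude other cell types. By Xist and the Y-linked Ddx3y, TPT replicates 1 and 2 were female, as were all 3 controls, and TPT replicates 3 and 4 were male, as were all 3 VcKO libraries. Sex and transplantation were thus partly confounded.

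TPT replicate 3 stood apart from the other libraries. Its correlation with the other 6 over tested genes was 0.815 to 0.865, whereas TPT replicates 1, 2 and 4 had correlations of 0.900 to 0.912 with each other and VcKO libraries 0.944 to 0.955. It had 15682 genes above 0, the fewest of the 7, and 261 genes at a value worth 1 read, against 975 to 1112 in the others. Among its genes at 3 to 10 reads, 66.3% lay at an even number, against 47.6% to 51.6% in the other knockout libraries. limma's array weights gave it 0.158, the lowest of the 7, and VcKO replicate 1 the highest, 3.83. The part of these differences in the results was not tested, and values without TPT replicate 3 are given beside the lists that it moved most.

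No gene passed the test. With limma, 0 genes of 11085 passed an adjusted p under 0.05 in either direction (0% called), and the smallest adjusted p was 0.930. At an unadjusted p under 0.05, 244 genes were higher and 102 lower (2.2% and 0.92% of those tested, 3.12% in all). All TPT libraries lay above all VcKO libraries at 389 genes and below them at 281 (3.51% and 2.53%, 6.04% in all). For a single gene, such separation either way has an exact two-sided permutation p of 0.0571, the smallest possible here. The share of 6.04% is near that, so separation alone says little about a gene. The count of called genes was also 0 each way without TPT replicate 3, in the 5 libraries with Ddx3y, and under the other alternatives tried. The median standard error of a log2 fold change was 0.226. In simulated libraries of this size, 40 of 100 genes changed by 1 on the log2 scale were recovered. Of those changed by 2, 79 of 100 were. The changed genes were drawn from those above the median level, with independent noise of equal size in both groups. The data had unequal spread, a median SD of 0.357 in TPT and 0.143 in VcKO. The rates therefore do not carry over to all 11085 genes, and changes of 1 were often missed even in the simulation.

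Genes of smallest p, 10 in each direction, are described as values that did not pass. Of the genes lower in TPT, 4 were chosen after their values were seen to show their promoters: Fos, a subunit of the AP-1 transcription factor, Dusp1, a phosphatase that switches off MAP kinases, Ppp1r15a (GADD34), which relieves the block of translation under stress, and H3f3b, which encodes the replacement histone H3.3. The 200 bases before their RefSeq start sites (GRCm38.p6, written 5′ to 3′ on the gene's strand) are shown because the letters TGACG, the core of the site bound by CREB and ATF factors, occur in each. Pde8a, also among the lower genes, held them too. Hist1h1c, the lower gene of smallest p, had no match in the RefSeq table. Capitals mark TGACG or its reverse complement CGTCA, and TGACGTCA where they overlap. The windows are chr12:85473690-85473889 (plus strand) for Fos, chr17:26508473-26508672 (minus) for Dusp1, chr7:45526269-45526468 (minus) for Ppp1r15a and chr11:116024505-116024704 (minus) for H3f3b.
Fos: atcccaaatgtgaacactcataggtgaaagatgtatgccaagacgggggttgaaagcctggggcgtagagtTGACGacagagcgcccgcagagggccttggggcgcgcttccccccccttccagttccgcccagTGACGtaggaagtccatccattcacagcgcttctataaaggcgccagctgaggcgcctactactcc
Dusp1: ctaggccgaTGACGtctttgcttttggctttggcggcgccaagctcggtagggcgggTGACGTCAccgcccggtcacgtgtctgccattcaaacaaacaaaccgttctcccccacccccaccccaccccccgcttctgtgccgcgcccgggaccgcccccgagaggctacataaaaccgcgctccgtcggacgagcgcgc
Ppp1r15a: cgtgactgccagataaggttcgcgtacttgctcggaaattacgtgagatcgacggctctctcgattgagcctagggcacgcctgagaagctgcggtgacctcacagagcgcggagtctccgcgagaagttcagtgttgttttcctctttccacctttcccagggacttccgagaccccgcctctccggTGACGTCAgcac
H3f3b: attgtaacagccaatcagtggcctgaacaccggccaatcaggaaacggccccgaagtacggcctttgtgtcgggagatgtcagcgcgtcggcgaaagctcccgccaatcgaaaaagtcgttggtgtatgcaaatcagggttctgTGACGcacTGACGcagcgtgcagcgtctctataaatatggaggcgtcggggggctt

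On either strand of the 250 bases before the start, TGACG was found for 5 of the 9 genes lower in TPT that matched a RefSeq entry, and for 3 of 9 of those higher. Of all 32851 such windows, which are not limited to tested genes, 17.8% held it. The full palindrome TGACGTCA was found for Dusp1 and Ppp1r15a and in 1.55% of all windows. The genes were picked by p in these data and none passed, so these shares are no test of enrichment. A match of letters is a description and shows no binding.

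Fos (chromosome 12, 85473890 to 85477273, plus strand) was at 0.789, 0.0818, 0.236 and 2.95 FPKM in TPT, against 9.77, 8.78 and 16.4 FPKM in VcKO libraries. All 4 TPT libraries lay below all 3 VcKO libraries, and 3 of them stood close to the 0.169 to 0.554 FPKM of controls. The log2 fold change was -2.80 (SE 0.46, limma adjusted p = 0.930). Dusp1 was at 1.58, 3.48, 1.3 and 1.1 FPKM in TPT and 4.36, 5.43 and 6.04 FPKM in VcKO, with controls between 3.23 and 3.41 FPKM (-1.19, SE 0.28, limma adjusted p = 0.991). Ppp1r15a had 1.63, 0.96, 2.02 and 3.18 FPKM in TPT and 4.80, 4.47 and 7.47 FPKM in VcKO libraries (-1.18, SE 0.28, limma adjusted p = 0.991). Its TPT values enclosed those of controls, 1.66 to 1.74 FPKM.

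Histone genes were among the lowest p as well. Hist1h1c, which encodes linker histone H1.2, was at 2.02, 2.84, 0.755 and 2.38 FPKM in TPT and 8.73, 8.21 and 11.5 FPKM in VcKO libraries, against 5.91 to 9.17 FPKM in controls. Its log2 fold change of -1.85 (SE 0.28) had the smallest unadjusted p of all genes, 0.000263. H3f3b was at 81.6, 95.3, 64.8 and 98.0 FPKM in TPT and 145, 126 and 172 FPKM in VcKO libraries (-0.80, SE 0.20). At both genes the TPT libraries lay below all VcKO and control libraries.

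Ly6c1 and Pde8a were high in both knockout groups relative to controls, and lower in TPT than in VcKO. Ly6c1, a surface antigen of the Ly6 cluster on chromosome 15, had 17.6, 30.2, 7.52 and 7.28 FPKM in TPT and 55.2, 74.8 and 39.6 FPKM in VcKO libraries, against at most 0.170 FPKM in controls. Pde8a, a phosphodiesterase of cyclic AMP, had 4.00, 2.93, 2.38 and 3.96 FPKM in TPT and 5.62, 6.30 and 7.47 FPKM in VcKO libraries, with controls at 0.176 to 0.391 FPKM. The groups overlapped at neither gene, and no TPT library was as low as a control. Iqgap1, a cytoskeletal scaffold, was at 56.9 to 72.7 FPKM in TPT and 93.8 to 97.1 FPKM in VcKO. Mblac1 (0.3 to 0.858 against 1.64 to 2.32 FPKM) and Grtp1 (0.156 to 0.674 against 1.35 to 2.72 FPKM) complete the 10 lower genes.

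Among the genes of smallest p that were higher in TPT, several encode surface or signalling proteins. Tnfsf14, the T cell cytokine LIGHT, was at 4.10, 4.53, 3.46 and 4.29 FPKM in TPT and 1.18, 0.749 and 1.91 FPKM in VcKO libraries, with controls at 2.08 to 2.53 FPKM between the groups (1.19, SE 0.20, limma adjusted p = 0.930). Pld4, an endolysosomal nuclease of the phospholipase D family, had 24.6, 33.9, 20.7 and 28.7 FPKM in TPT and 8.28, 10.1 and 13.3 FPKM in VcKO libraries (1.28, SE 0.22, limma adjusted p = 0.930). Controls were below both groups at 5.18 to 6.91 FPKM. Evc, a ciliary protein of Hedgehog signalling, was at 2.90, 4.47, 5.97 and 6.88 FPKM in TPT and 1.30, 0.189 and 0.260 FPKM in VcKO, and at 0.0111 FPKM or less in controls (1.95, SE 0.33).

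Mex3a, an RNA-binding protein, lay within a narrow range in TPT, 26.9, 26.9, 30.9 and 27.3 FPKM, above 18.6, 14.5 and 16.1 FPKM in VcKO libraries (0.74, SE 0.13). Edaradd, the adaptor of the ectodysplasin receptor, was at 14.7 to 22.7 FPKM in TPT and 6.84 to 8.73 FPKM in VcKO libraries. St8sia4, a polysialyltransferase, was at 3.01 to 3.75 and 1.55 to 1.93 FPKM, Degs2, an enzyme of sphingolipid synthesis, at 2.92 to 5.55 and 1.47 to 1.67 FPKM, and Gt(ROSA)26Sor, a non-coding transcript, at 5.66 to 8.47 and 3.24 to 3.85 FPKM. None of these 20 genes had overlapping groups, as their choice by p favours.

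Of 4 globin genes on the red cell list, the 2 that passed the filter were higher in all 4 TPT libraries. The other two were not tested, and their ranges overlapped: Hba-a2 and Hbb-bt were at 0.059 to 0.281 and 0.0698 to 2.29 FPKM in TPT and at 0 to 0.203 and 0 to 0.0756 FPKM in VcKO libraries. Hbb-bs had 19.3, 20.5, 27.3 and 11.8 FPKM in TPT and 5.99, 2.69 and 1.90 FPKM in VcKO libraries, and Hba-a1 had 24.3, 28.8, 45.1 and 14.8 FPKM against 10.4, 4.26 and 1.47 FPKM. Controls, at 4.68 to 12.5 and 9.05 to 17.8 FPKM, reached into the TPT range. The 8 red cell markers summed to 29.2 to 72.9 FPKM in TPT and 3.72 to 16.7 FPKM in VcKO libraries. Car1, a carbonic anhydrase of red cells, was at 0 in all 7, and Klf1, the erythroid master regulator, was at 0.0665 FPKM or less. The source of the globin reads was not tested.

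**Figure D1:**
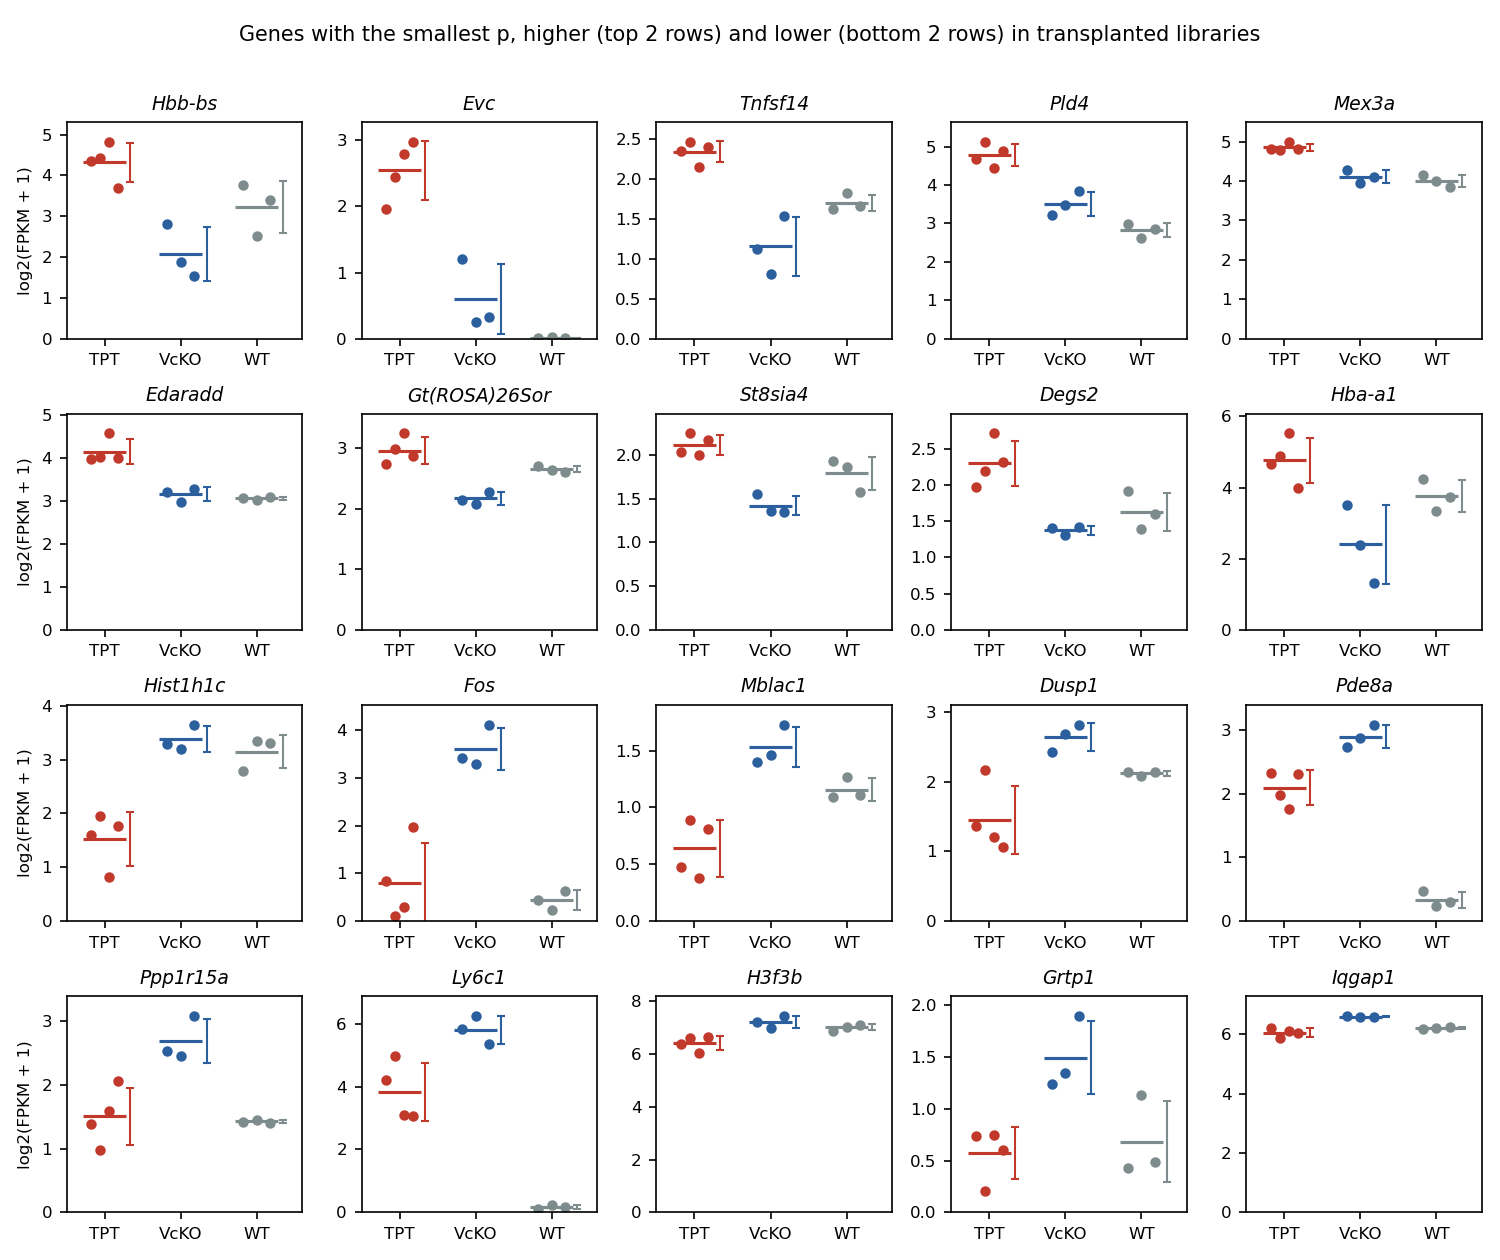
Expression as log2(FPKM + 1) of the 10 genes of smallest p higher (upper rows) and the 10 lower (lower rows) in transplanted (TPT) than untransplanted (VcKO) knockout libraries, with controls (WT) at the right of each panel. Points are libraries, horizontal lines are means and bars are SDs (n = 4, 3 and 3), which end at the axis where they would pass below 0. The TPT and VcKO points do not overlap in any panel, although no adjusted p was below 0.930.

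Few beta chain V segments made up most of the V segment signal in every knockout library except TPT replicate 4. A beta chain gene is made by joining 1 of many V segments (Trbv) to D, J and C segments, so a population of many clones uses many V segments. Of 34 Trbv segments in the table, 18 were listed at 0 in all 10 libraries of the 8-week table, so shares refer to the remaining segments. The most abundant segment took 98.0% (Trbv2), 92.4% (Trbv26), 65.1% (Trbv2) and 28.3% (Trbv3) of all Trbv FPKM in TPT replicates 1 to 4. In VcKO replicates 1 to 3 it took 78.2% (Trbv1), 66.9% (Trbv29) and 55.5% (Trbv2). Each control had 16.5% to 17% in its leading segment and 10 segments above 1%. TPT replicate 4 also had 10 segments above 1%, where the other knockout libraries had 2 to 5.

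TPT thus spanned the range of the VcKO libraries on both sides. The mean share was 70.9 ± 31.9% in TPT and 66.9 ± 11.3% in VcKO (SD, n = 4 and 3), a difference of 4.07 percentage points (exact two-sided permutation test, p = 0.914, with 0.0571 the smallest p that 4 and 3 libraries allow). The difference turned negative without TPT replicate 1 (-4.95), TPT replicate 2 (-3.08) or VcKO replicate 3 (-1.60). The low share of TPT replicate 4 came with little Trbv signal at all: its segments summed to 26.9 FPKM, against 1311, 1178 and 2724 FPKM in the other TPT libraries. VcKO replicate 2 also had a low sum, 197 FPKM, against 1718 and 2460 FPKM in the other VcKO libraries. Both libraries nevertheless had 4278 and 3361 FPKM of the constant segment Trbc2, above the 1257 to 1587 FPKM of TPT replicates 1 and 3. A chain that uses a segment listed at 0 everywhere would not be seen.

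The constant segments were uneven as well. Trbc1 was at 1503, 4.70, 685 and 8.57 FPKM in TPT and 4.64, 98.7 and 692 FPKM in VcKO libraries, while controls were at 891 to 995 FPKM. TPT replicates 2 and 4 and VcKO replicate 1 thus had 0.121%, 0.200% and 0.139% of their Trbc FPKM in Trbc1, where controls had 21.1% to 22.9%. Trbc1 and Trbc2 are near-copies, so their single values are uncertain. A J segment (Trbj) took up to 45.9% of Trbj FPKM in TPT (replicate 4, Trbj2-3) and up to 55.0% in VcKO (replicate 2, Trbj2-4), against at most 12.5% in controls.

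Gamma chain segments, normally transcribed in gamma-delta T cells, were high in some libraries of both groups. Tcrg-C1 was at 161, 243, 29.0 and 14.5 FPKM in TPT and 31.8, 4.16 and 8.41 FPKM in VcKO libraries, with controls at 0.534 to 2.20 FPKM. Its log2 fold change of 2.49 (SE 1.08, limma adjusted p = 0.991) came with TPT replicates 1 and 2 above, and replicates 3 and 4 within, the range of VcKO. Tcrg-C2 had 506, 422, 4.49 and 0.369 FPKM in TPT and 114, 4.29 and 32.2 FPKM in VcKO libraries, so TPT libraries lay both above and below all VcKO libraries. Tcrg-C4 had 87.7, 173, 0.928 and 1.68 FPKM in TPT and 32.3, 1.77 and 11.1 FPKM in VcKO. These constant segments are near-copies of each other too. Sox13, a factor of the gamma-delta lineage, was at 0.112 to 2.57 FPKM in TPT and 0.296 to 0.687 FPKM in VcKO.

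**Figure D2:**
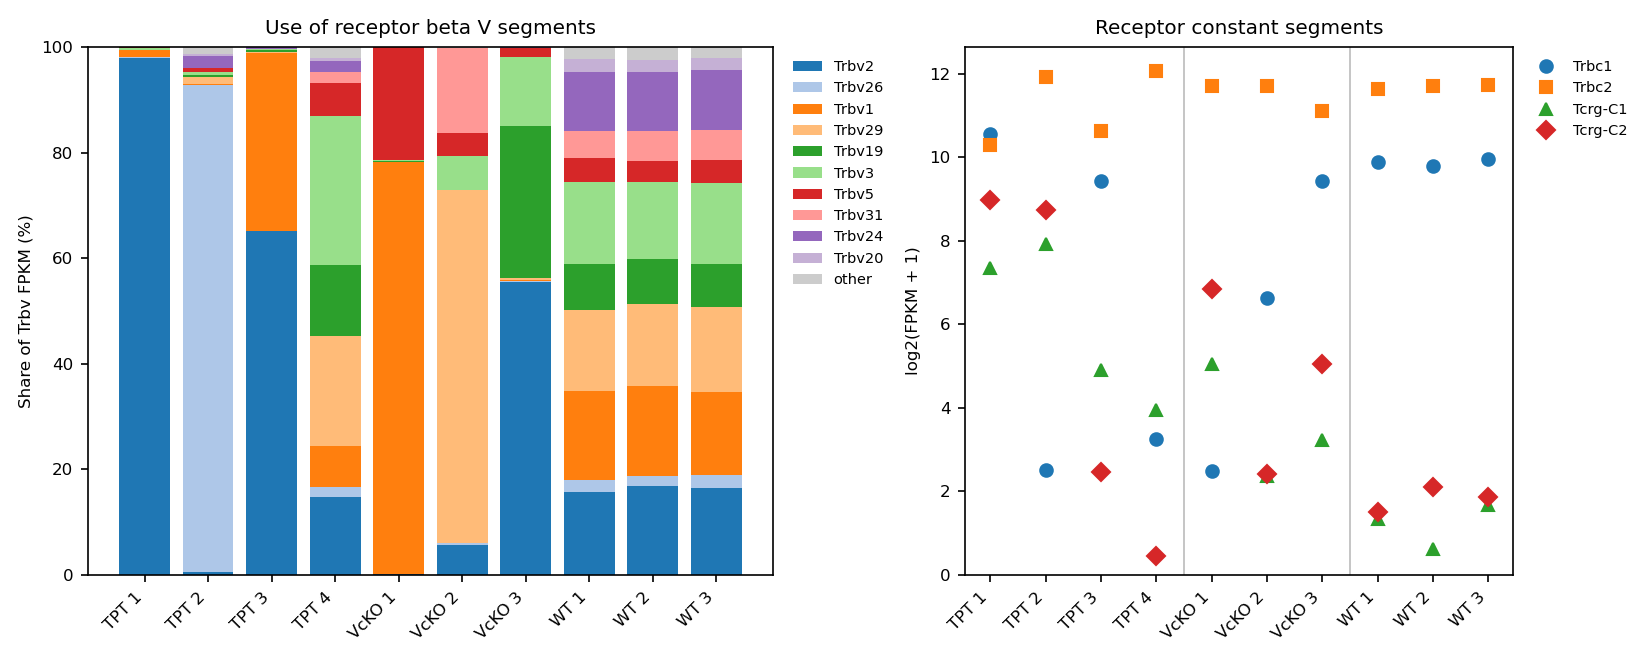
Left, share (%) of summed Trbv FPKM taken by each V segment, 1 bar per library in the order TPT, VcKO and WT. Right, log2(FPKM + 1) of 2 beta and 2 gamma constant segments in the same libraries. Knockout bars other than TPT 4 are mostly a few colours, control bars show 10 segments, and Trbc1 is low in TPT 2, TPT 4 and VcKO 1.

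Chromosome-wide levels were compared with those of the controls. Chromosome 15 had 268 genes that averaged at least 5 FPKM in controls. Over these, the median log2 difference from controls, relative to the other autosomes, was 0.56, 0.59, 0.53 and 0.59 in TPT and 0.74, 0.59 and 0.68 in VcKO libraries. Chromosome 15, which carries Myc, thus lay above controls in all 7 libraries, and TPT values stayed within a narrow range that overlapped that of VcKO. The mean was 0.568 ± 0.0276 in TPT and 0.668 ± 0.0744 in VcKO (SD, n = 4 and 3), a difference of -0.100 (exact two-sided permutation test, p = 0.114). TPT replicates 1, 3 and 4 lay below every VcKO library, replicate 4 only narrowly (0.5874 against 0.5897 in VcKO replicate 2). TPT replicate 3, where Myc was lowest, had the lowest chromosome 15 median of the 7, 0.53. TPT replicate 1, where Myc was highest, came next, at 0.56. A link between Myc and these medians was not tested.

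Chromosomes 8 and 10 stood out in 1 library each. Chromosome 8 was at 0.450 in TPT replicate 1 (357 genes) and between -0.0276 and 0.0193 in the other 6 libraries. Chromosome 10 was at 0.404 in VcKO replicate 3 (322 genes) and between -0.0466 and 0.0243 in the others. Chromosome 14 was below 0 in every knockout library, at -0.26, -0.18, -0.13 and -0.14 in TPT and -0.08, -0.05 and -0.15 in VcKO. So was chromosome 6, at -0.07, -0.11, -0.12 and -0.06 in TPT and -0.12, -0.14 and -0.13 in VcKO. Chromosomes 2, 7 and 11 were also below 0 in every knockout library, down to -0.09. Chromosome 18 was above 0 in all of them, up to 0.21 in VcKO replicate 3. Control libraries stayed within 0.0197 of 0 on every autosome. Expression alone does not show whether DNA copies changed.

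**Figure D3:**
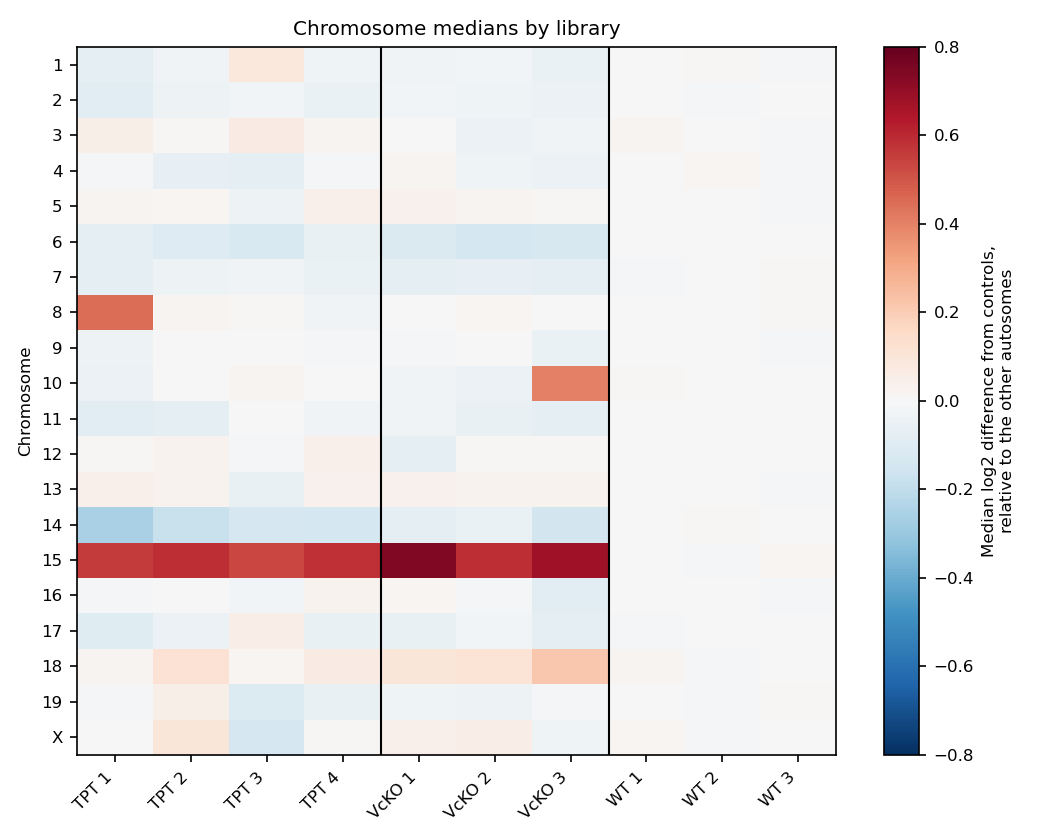
Median log2 difference from the 3 controls of each chromosome's genes, relative to the other autosomes, in the libraries of the 8-week table. Red marks chromosome 15 in all 7 knockout libraries, chromosome 8 in TPT 1 and chromosome 10 in VcKO 3.

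Gene lists are described by counts and by the median log2 fold change of their tested members, beside -0.02 for all tested genes. No member of any list was called, as for genes at large (0% called). Tested members are those that passed the filter on low values. That filter counted knockout libraries only, so list medians against controls favour genes that are high in knockouts. E proteins and their Id inhibitors were 5 tested genes of 6, with a median of -0.17. Tcf12, which encodes the E protein HEB, was at 14.7 to 17.1 FPKM in TPT and 15.7 to 19.7 FPKM in VcKO libraries. Id3, another inhibitor, was at 10.8 to 28.4 and 12.7 to 31.7 FPKM. Id2, an inhibitor that pairs with E proteins, was at 24.2, 2.37, 9.20 and 12.3 FPKM in TPT and 24.1, 23.3 and 10.4 FPKM in VcKO, so TPT replicate 2 was lowest.

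Notch signalling commits progenitors to the T cell lineage and drives early thymocytes. The 11 tested genes of 13 had a median of 0.06 in this comparison, 6 positive and 5 negative, with -0.29 without VcKO replicate 3 and 0.33 without VcKO replicate 2. Of the knockout libraries, 7 of 7 had a list median above controls, which the filter on knockout libraries favours. Dtx1, Hes1, Heyl and Myc passed it while below 1 FPKM in every control. Notch1, the receptor, was at 101, 44.5, 64.4 and 43.6 FPKM in TPT and 65.8, 87.8 and 32 FPKM in VcKO libraries, against 9.97 to 11.6 FPKM in controls. Notch3 was at 19.7 to 51.3 FPKM in TPT and 16.6 to 23.4 FPKM in VcKO. Dtx1, a Notch target, varied more within TPT, at 65.2, 3.14, 17.3 and 20.4 FPKM, than within VcKO, at 12.6, 17.3 and 11.3 FPKM. Il2ra (CD25), a surface marker of thymocytes before the double-positive stage, had 69.6, 118, 31.7 and 1.02 FPKM in TPT and 3.87, 8.82 and 25 FPKM in VcKO. Of its TPT libraries, replicate 4 was below all VcKO libraries and the other 3 above them (1.34, SE 1.37, limma adjusted p = 0.991).

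Genes of the double-positive stage, 21 of 21 tested, had a median of -0.13, 8 positive and 13 negative. Rag1 was at 228, 297, 767 and 330 FPKM in TPT and 453, 330 and 377 FPKM in VcKO libraries, with controls at 1022 to 1088 FPKM. Rag2, its partner, had 2.8, 1.84, 10 and 13.2 FPKM in TPT and 5.31, 4.53 and 5.93 FPKM in VcKO, far below the 59.4 to 63 FPKM of controls. Dntt, which adds random bases to receptor joints, was at 73.1 to 242 FPKM in TPT and 198 to 506 FPKM in VcKO. Tcf7, which encodes TCF1, was at 859 to 1187 FPKM in TPT and 1189 to 1224 FPKM in VcKO. For Rag1 and Cd4 (389 FPKM), TPT replicate 3 was the highest of the 7. Without that library the list median was -0.30, and in the libraries with Ddx3y alone it was 0.17.

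Growth genes differed most in TPT replicate 3. Ribosome biogenesis genes, most of them targets of MYC, had a median of -0.36 over 22 tested genes, 20 of them negative, and 0.02 without TPT replicate 3. Myc itself was at 23, 21.3, 1.47 and 9.34 FPKM in TPT and 16.5, 13.7 and 15.8 FPKM in VcKO libraries, against 0.734 to 0.945 FPKM in controls. Srm, spermidine synthase, was at 37.1, 26.9, 2.24 and 22.6 FPKM in TPT and 23.8, 24.2 and 22.2 FPKM in VcKO, with controls at 3.71 to 4.75 FPKM. The nucleolar genes Npm1, Ncl and Fbl had 46.1 to 233, 41.6 to 104 and 23.9 to 140 FPKM in TPT and 155 to 212, 90.8 to 103 and 96.4 to 106 FPKM in VcKO. TPT replicate 3 was the lowest of the 7 for 21 of the 22 genes, where it was lowest for 35.5% of all tested genes.

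Cytosolic ribosomal proteins followed the same order, with a median of -0.34 (0 of 22 positive) and -0.02 without TPT replicate 3, which was lowest at 22 of 22. Rpl3 was at 161, 146, 42.1 and 101 FPKM in TPT and 132 to 148 FPKM in VcKO libraries, with controls at 43.7 to 46.1 FPKM. Rpl4 was at 591 to 1861 and 1374 to 1716 FPKM and Rpl5 at 64.7 to 178 and 141 to 166 FPKM. Nuclear genes of oxidative phosphorylation had a median of -0.25 and -0.03 without that library, and genes of glycolysis -0.25 and -0.09. Ndufa1, Ndufa4 and Ndufa9, of respiratory complex I, were at 49.7 to 72.4, 97.4 to 230 and 32.9 to 60.6 FPKM in TPT and 59 to 70.6, 188 to 214 and 58.9 to 62.8 FPKM in VcKO. The glucose transporters Slc2a1 and Slc2a3 and hexokinase Hk1 were at 2.28 to 4.08, 0.905 to 3.82 and 3.66 to 7.92 FPKM in TPT and 2.31 to 4.05, 2.1 to 3.21 and 5.04 to 5.95 FPKM in VcKO. Mitochondrially encoded genes, 13 of 13 tested, had a median of 0.06, and -0.04 without TPT replicate 3. mt-Nd1, mt-Nd2 and mt-Nd3 were at 1891 to 2426, 833 to 1325 and 0.564 to 3.66 FPKM in TPT and 1908 to 2079, 941 to 965 and 1.65 to 3.2 FPKM in VcKO. Among these genes mt-Co2, a cytochrome oxidase subunit, was at 49.8, 40.5, 45.7 and 48.7 FPKM in TPT and 34.6, 31.1 and 27.2 FPKM in VcKO (0.56, limma unadjusted p = 0.00543), and mt-Nd6 was lower in all 4 TPT libraries, 619 to 768 against 796 to 875 FPKM.

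Cell cycle genes also turned on that library. S phase genes had a median of -0.33, 0 of 18 positive, and 0.10 without TPT replicate 3. Mcm2, of the replicative helicase, was at 158, 122, 37.2 and 113 FPKM in TPT and 120.3 to 128 FPKM in VcKO libraries. Its partners Mcm3 and Mcm4 were at 8.11 to 58.6 and 31.8 to 119 FPKM in TPT and 49.3 to 54.4 and 99.8 to 106 FPKM in VcKO. Mitosis genes had a median of -0.65, 0 of 16 positive, and -0.21 without TPT replicate 3, so this list stayed lower than all genes. Mki67, the proliferation marker, had 66.4, 76.9, 25.6 and 109 FPKM in TPT and 94.3, 104 and 93.2 FPKM in VcKO, against 110.2 to 128 FPKM in controls. Top2a and Ccnb1 were at 18.3 to 96.6 and 1.77 to 11.2 FPKM in TPT and 81.2 to 83.2 and 9.72 to 11.1 FPKM in VcKO. For 5 of the 16 genes all TPT libraries lay below all VcKO libraries, where 2.53% of all genes did. Cenpf, a kinetochore protein, was at 4.28, 6.02, 1.88 and 5.08 FPKM in TPT and 7.2, 9.56 and 6.9 FPKM in VcKO (-0.80, limma unadjusted p = 0.0339, adjusted p = 0.991). Ccnb2, Cdc20, Tpx2 and Cenpe were the other 4, with gaps such as 51.1 FPKM in the highest TPT and 52.3 FPKM in the lowest VcKO library for Ccnb2.

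Immediate early and heat shock genes had a median of -0.60 over 10 tested genes, 9 of them negative. The list medians against controls were 0.87, 0.09, -0.22 and 0.66 in TPT and 0.92, 0.84 and 0.57 in VcKO. TPT replicates 1 and 4 thus lay inside the VcKO range. Of the tested genes, 5 had a limma unadjusted p under 0.05, all lower, where 0.92% of all genes were lower at that p. They were Fos and Dusp1, already named for their small p, and Junb, Hspa1a and Hspa1b. Junb, a partner of Fos in AP-1, was at 25.1, 11.4, 12 and 12.9 FPKM in TPT and 27.2, 19.3 and 29.6 FPKM in VcKO libraries, and TPT replicate 1 lay inside the VcKO range. The inducible heat shock protein gene Hspa1a had 3.11, 0.120, 1.16 and 15.6 FPKM in TPT and 14, 16 and 15.8 FPKM in VcKO, with controls at 0.032 to 0.0622 FPKM. TPT replicate 4 was at the VcKO level. Jun, another AP-1 partner of Fos, was at 0, 19.4, 0 and 3.9 FPKM in TPT and 1.57, 14.1 and 1.08 FPKM in VcKO. Dnajb1, a co-chaperone, was higher in all 4 TPT libraries, at 115, 83.8, 58.5 and 63.3 FPKM in TPT and 52.5 to 56.2 FPKM in VcKO. Hspa1a and Hspa1b are near-copies and uncertain one by one. Whether handling of the cells differed between the groups is not given in the labels, and its part was not tested.

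The T cell receptor list (14 of 14 tested) had a median of -0.06. Cd3d was at 194 to 277 FPKM in TPT and 235 to 323 FPKM in VcKO libraries, Cd3e at 242 to 357 and 259 to 358 FPKM, and Cd3g at 233 to 368 and 259 to 381 FPKM, with overlapping ranges. Genes induced by receptor signals, 13 of 16 tested, had a median of -0.06 as well, and 0.25 without TPT replicate 2. Cd69, an early activation marker, had 4.21, 1.51, 17.7 and 9.01 FPKM in TPT and 4.80, 4.16 and 1.34 FPKM in VcKO. Cd6 was at 19.5 to 32.5 FPKM in TPT and 18.2 to 28 FPKM in VcKO. Cd5, whose level follows receptor signal strength, had 66.6, 11.6, 92.3 and 49.6 FPKM in TPT and 45.4, 72.6 and 29.7 FPKM in VcKO. Tox, a factor of positive selection, was higher in all 4 TPT libraries, at 11.2 to 14.9 against 9.03 to 10.7 FPKM (0.35, limma unadjusted p = 0.0517).

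Mature T cell genes were highest in TPT replicate 1 and lowest in TPT replicate 2. Their median was 0.31 over 12 tested genes, 10 of them positive, and was -0.087 without TPT replicate 1 and 0.81 without TPT replicate 2. The medians against controls were 1.76, -0.96, 0.43 and 0.67 in TPT and 0.41, 0.26 and 0.68 in VcKO. Klf2, the regulator of thymic exit, was at 42.7, 0.994, 1.33 and 4.42 FPKM in TPT and 5.09, 4.97 and 14.4 FPKM in VcKO libraries. S1pr1, its target and the receptor for exit, was at 17.7, 0.152, 1.60 and 1.57 FPKM in TPT and 0.637, 0.620 and 1.39 FPKM in VcKO. Il7r, the interleukin-7 receptor, peaked in another library, with 26.4, 117, 5.51 and 3.14 FPKM in TPT and 16.9, 4.88 and 10.8 FPKM in VcKO.

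Homing receptors had a median of 0.06 over 8 tested genes of 10, which was -0.32 without TPT replicate 1 and 0.76 without TPT replicate 2. Ccr9, which draws progenitors to the thymus, had 43.1, 2.81, 82.7 and 64.7 FPKM in TPT and 50.7, 30.4 and 32.5 FPKM in VcKO libraries. Cxcr4 was at 67.8 to 136 FPKM in TPT and 86.8 to 97.5 FPKM in VcKO. Ccr4 was at 60.6, 3, 21.3 and 43.6 FPKM in TPT and 24.4, 14.6 and 25.1 FPKM in VcKO, so TPT replicate 2 was the lowest of the 7 for Ccr9 and Ccr4.

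Innate-like and cytotoxic genes had a median of 0.25 over 6 tested of 12, with 0.012 without TPT replicate 1 and 0.55 without TPT replicate 2. Nkg7, a granule protein of cytotoxic cells, was at 6.93, 0.291, 6.37 and 4.16 FPKM in TPT and 0.357, 0.476 and 0.545 FPKM in VcKO libraries (1.61, SE 0.61, limma unadjusted p = 0.0323, adjusted p = 0.991). TPT replicates 1, 3 and 4 were above every VcKO and control library, and replicate 2 was not. Il2rb, the interleukin-2 receptor beta chain, was at 7.08, 1.54, 2.67 and 8.28 FPKM in TPT and 0.922, 2.14 and 1.97 FPKM in VcKO. Gzma, a granzyme, was high in both groups, 75.9 to 788 FPKM in TPT and 325 to 481 FPKM in VcKO, against 28.3 to 39.8 FPKM in controls. The transcription factors Eomes and Tbx21 of cytotoxic cells were at 0 to 0.213 and 0.206 to 0.92 FPKM in TPT and 0.0194 to 0.0592 and 0.797 to 1.13 FPKM in VcKO.

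Interferon-stimulated genes had a median of -0.17 over 14 tested of 19, and TPT replicate 2 was above the rest, with a list median of 1.03 against controls. Irf7, a transcription factor of the interferon response, was at 0.72 to 2.68 FPKM in TPT and 0.84 to 1.68 FPKM in VcKO. Isg15 was at 5.53, 16.8, 3.51 and 9.33 FPKM in TPT and 8.84 to 11.7 FPKM in VcKO. Rtp4 had 4.89, 24.2, 0.53 and 5.94 FPKM in TPT and 3.91 to 5.66 FPKM in VcKO libraries. Gbp2, a guanylate-binding protein, was lower in all 4 TPT libraries, 5 to 8.22 against 9.08 to 14.9 FPKM (-0.66, limma unadjusted p = 0.018).

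Targets of p53, which respond to DNA damage, had a median of 0.12 over 14 tested of 17, 11 of them positive. Cdkn1a, the cell cycle inhibitor p21, was at 1.21, 10.6, 2.32 and 1.97 FPKM in TPT and 3.15, 5.21 and 2.55 FPKM in VcKO libraries. Mdm2 was at 7.75 to 15 and 7.94 to 12.5 FPKM and Bax at 54.6 to 86 and 64.1 to 77 FPKM. Sesn2, a stress-responsive target, had 3.25, 3.67, 3.36 and 5.11 FPKM in TPT and 3.03, 1.54 and 1.91 FPKM in VcKO (0.63, limma unadjusted p = 0.0211). In the BCL2 family (11 of 12 tested, median -0.03) Mcl1, which keeps thymocytes alive, was higher in all 4 TPT libraries, 82.3 to 121 against 60.7 to 73 FPKM. Bcl2 was at 0.432 to 1.78 FPKM in TPT and 0.333 to 0.697 FPKM in VcKO, and Bcl2l1 at 8.41 to 22 and 12.1 to 17.1 FPKM.

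Genes altered in T cell leukaemia had a median of -0.03 over 11 tested of 19. Lmo2, Tal1, Tlx1 and Tlx3, transcription factors activated in human T cell leukaemia, were at or near 0 in all 7 libraries. Lyl1 of the same list was at 0.206 to 0.815 FPKM in TPT and 0.236 to 1.62 FPKM in VcKO, with controls at 0.0513 to 0.712 FPKM. Igf2bp3, a fetal RNA-binding protein, was above controls in both groups, at 20.4, 9.17, 13.8 and 21.8 FPKM in TPT and 18.7, 19.7 and 15.9 FPKM in VcKO libraries, against 0.276 to 0.380 FPKM in controls. Phf6, a chromatin protein, was at 5.95 to 14.5 FPKM in TPT and 9.45 to 11.6 FPKM in VcKO. Fbxw7, a tumour suppressor, was at 2.48 to 4.26 FPKM in TPT and 2.68 to 3.11 FPKM in VcKO. Of the early progenitor genes 2 of 10 were tested, Il2ra and Kit, and Spi1, Bcl11a and Gfi1b were at 0.0956 FPKM or less. Cytokine signalling genes (11 of 12 tested) had a median of 0.12, and -0.045 without TPT replicate 3. Il4ra was at 10.8, 4.3, 40.6 and 23.4 FPKM in TPT and 13.2 to 14.8 FPKM in VcKO, and Il2rg at 37.6 to 63.2 and 43.5 to 48 FPKM.

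Macrophage and granulocyte markers summed to 4.33 to 28.5 FPKM in TPT and 4.83 to 11 FPKM in VcKO libraries, with Lyz2, lysozyme, at 16.1 FPKM in TPT replicate 3, while Adgre1 and Mpo were at or near 0. Dendritic cell markers summed to 3.14 to 9.34 and 6.59 to 10.3 FPKM, B cell markers, mostly Ighm, to 111 to 165 and 100.3 to 141 FPKM, and stromal markers, mostly Pecam1, to 12.3 to 15.2 and 12.6 to 16 FPKM. H2-Ab1, of class II antigen presentation, was lower in all 4 TPT libraries, 1.99 to 3.19 against 3.28 to 7.11 FPKM, whereas H2-Eb1 and Cd74 of the same pathway were at 0.124 to 4.1 and 0.358 to 1.93 FPKM in TPT and 0.264 to 1.03 and 1.12 to 1.44 FPKM in VcKO. TPT replicate 3 was highest for Igkc of B cells (68.4 FPKM, at most 20.4 FPKM in the other 6) and for Itgam and Cd68 of macrophages (3.29 and 6.25 FPKM). Their part in the results was not tested.

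**Figure D4:**
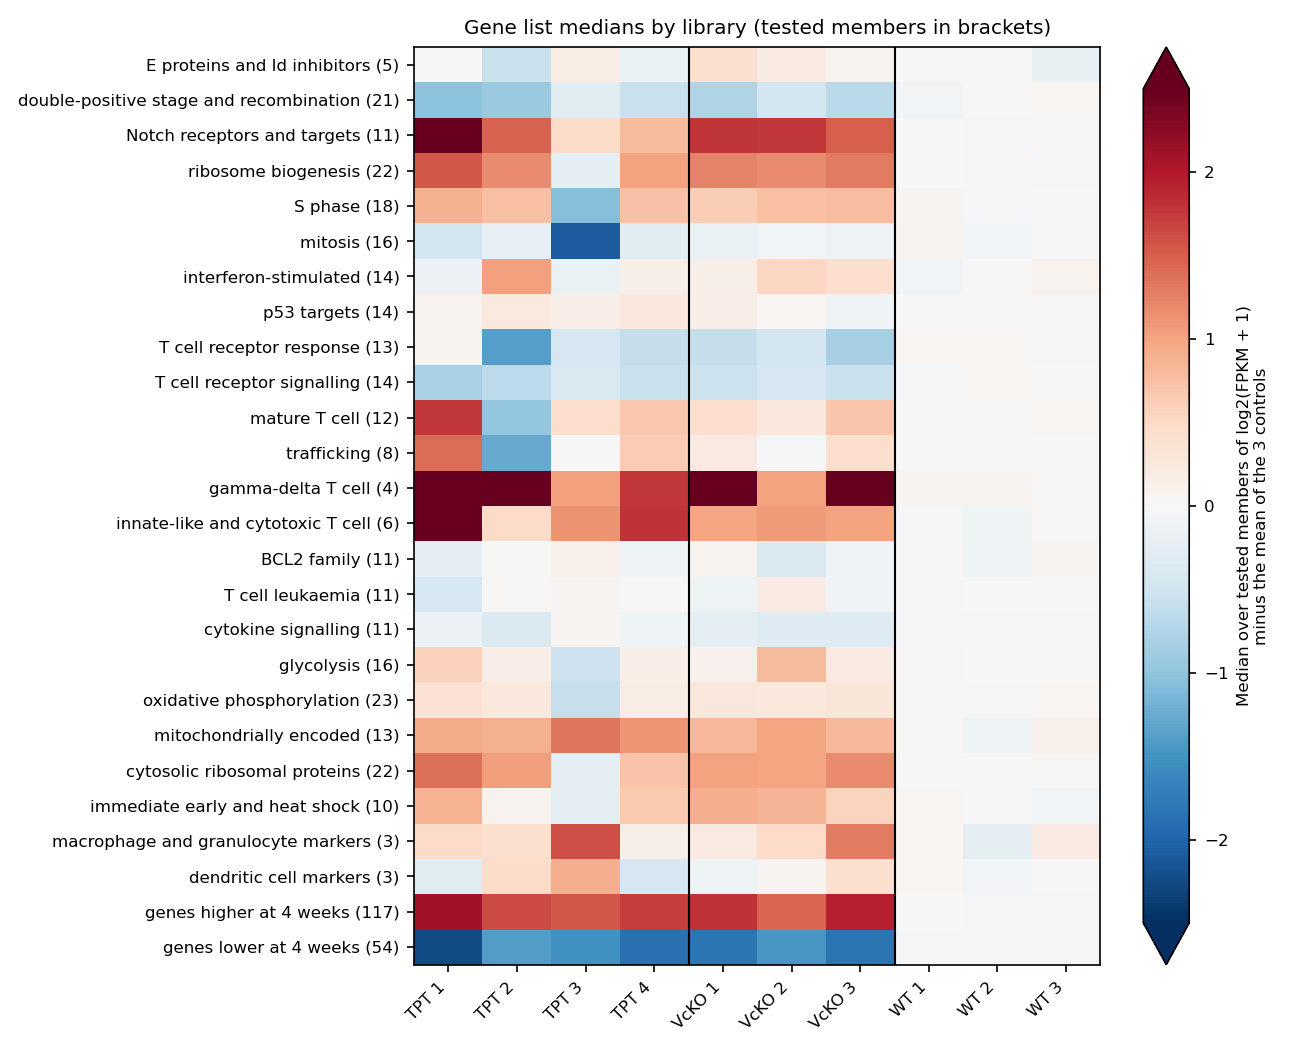
Median over the tested members of each list (number in brackets) of log2(FPKM + 1) minus the mean of the 3 controls, by library. The colour scale is capped. TPT 3 is low for ribosome and cell cycle lists, TPT 2 is low for mature and trafficking genes, TPT 1 is high for them, and the 4-week genes have the same sign in all 7.

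Genes changed in the Vav knockout at 4 weeks had medians on the same side of controls in all 4 TPT libraries at 8 weeks. They came from other libraries, 3 Vav knockouts and 3 controls of 4 weeks, in which 120 genes were higher and 119 lower by a log2 change of 1 or more at an adjusted p under 0.05 (1.11% and 1.1% of 10828). Of the 120 higher genes, 117 were tested in the present comparison, with a median log2 fold change of 0.08 between TPT and VcKO, 67 positive and 50 negative. That median was -0.039 without TPT replicate 1 and 0.22 without TPT replicate 4. With no fold minimum it was -0.13 over 822 genes, 274 positive and 548 negative. Against controls these 822 genes had medians of 1.11, 0.87, 0.29 and 0.78 in TPT and 0.86, 0.80 and 0.94 in VcKO. TPT replicate 3 was thus the lowest of the knockout libraries, and its part in the negative median was not tested. Against the 8-week controls the median of the 117 genes was 2.10, 1.64, 1.55 and 1.73 in TPT and 1.81, 1.45 and 1.95 in VcKO libraries. The TPT values enclosed those of 2 VcKO libraries, and TPT replicate 3 was the lowest of its group. At single genes values varied more. Ly6d, a lymphoid surface antigen on chromosome 15, was at 1452, 376, 1204 and 474 FPKM in TPT and 1978, 965 and 1194 FPKM in VcKO, against 92.2 to 118 FPKM in controls.

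Of the 119 genes lower at 4 weeks only 54 were tested, since the others did not reach the filter in these knockout libraries. Their median between TPT and VcKO was -0.14, 21 positive and 33 negative, and with no fold minimum 0.04 over 506 genes, 279 positive and 227 negative. Against controls it was -2.24, -1.41, -1.51 and -1.87 in TPT and -1.80, -1.46 and -1.83 in VcKO libraries. No gene of either list was called in the present comparison (0% of all genes called). Without chromosome 15 the medians between TPT and VcKO were 0.15 for the 101 higher and -0.14 for 50 lower genes.

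TPT libraries differed more among themselves than VcKO libraries. The median SD of a tested gene on the log2 scale was 0.357 in TPT and 0.143 in VcKO, against 0.0938 in controls. It was 0.233 in TPT without replicate 3, and 71.5% of genes then still had a larger SD in TPT. Counting protein-coding genes that lay more than 1 on the log2 scale above all 6 other knockout libraries gave 36, 142, 96 and 62 for TPT replicates 1 to 4 and 5, 26 and 9 for VcKO replicates 1 to 3. Below all others there were 13, 49, 484 and 26 in TPT and 1, 6 and 4 in VcKO. With libraries scaled to the same sum, TPT replicate 3 had 210 above and 322 below. The genes named next were chosen for these gaps after their values were seen, so the gaps are descriptions.

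In TPT replicate 2, Satb1, the chromatin organiser that double-positive cells need, was at 0.0342 FPKM, against 25.7, 52.8 and 48.4 FPKM in the other TPT libraries, 34.3 to 43 FPKM in VcKO and 72.9 to 82.3 FPKM in controls. Tbc1d5, which lies on chromosome 17 as Satb1 does, was at 0.518 FPKM there, against 5.21 to 8.91 and 9.98 to 12.4 FPKM. The costimulatory receptor gene Cd28 was at 4.09 FPKM in that library and at 33.2 to 44.3 FPKM in the other 6. Amph, the endocytic protein amphiphysin, had 59.0 FPKM in TPT replicate 2 and at most 0.620 FPKM elsewhere, and Gpr82, an orphan receptor on the X chromosome, 26.0 FPKM and at most 0.564 FPKM. Kit, the stem cell factor receptor of early progenitors, was at 12.1 FPKM in replicate 2, against 0 to 2.55 FPKM in the other TPT and 0.117 to 1.29 FPKM in VcKO libraries.

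TPT replicate 1 led for S1pr1 and Klf2, described above, and shared high Cd163l1 with replicate 4. Cd163l1, a scavenger receptor of gamma-delta T cells, was at 132, 0.192, 1.68 and 92 FPKM in TPT and 1.1, 3.81 and 1.32 FPKM in VcKO. In TPT replicate 4, Rbm24, an RNA-binding protein, was at 38.7 FPKM (at most 2.23 FPKM in the other 6), Igsf23 at 62.7 FPKM (2.34 to 11.7 FPKM) and Bmpr1a, a receptor for bone morphogenetic proteins, at 5.35 FPKM (0 to 0.207 FPKM). Hspb3, a small heat shock protein gene, was at 17 FPKM in TPT replicate 3 and at most 1.88 FPKM elsewhere. VcKO libraries had such genes too. Hhipl1 was at 10.7 FPKM in VcKO replicate 1 and 0 in the other 6, Rpl39l at 25.4 FPKM in replicate 2 and at most 0.0457 FPKM in the other 6, and Nova1 at 7.58 FPKM in replicate 3 and at most 1.12 FPKM elsewhere.

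**Figure D5:**
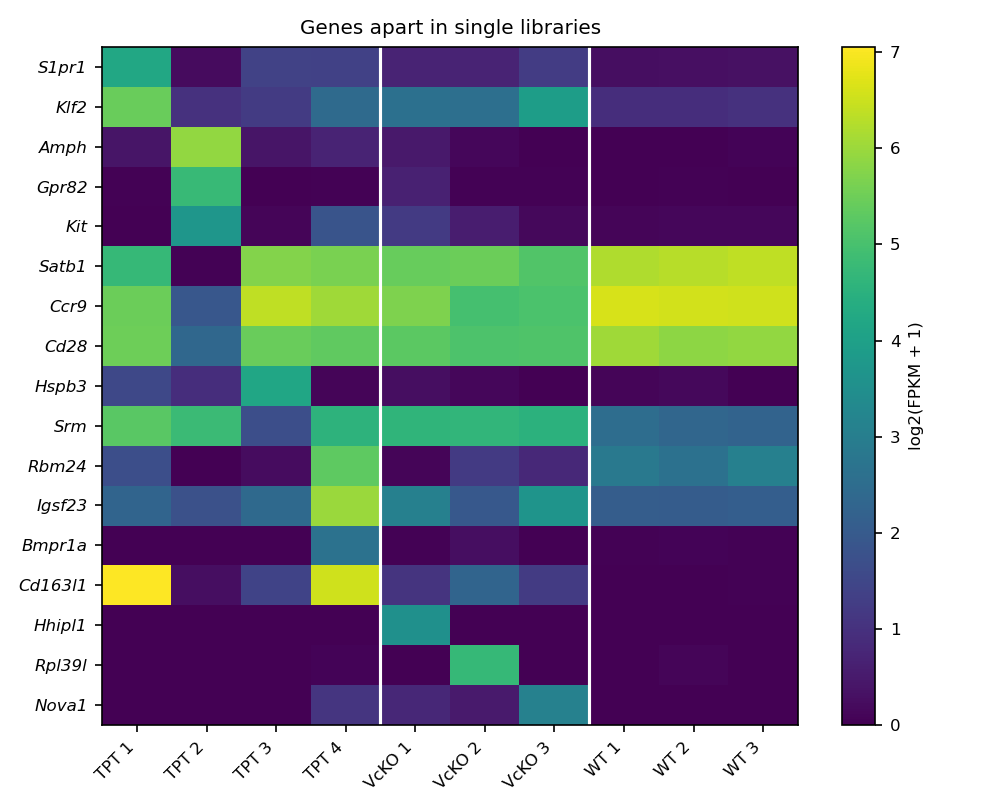
Expression as log2(FPKM + 1) of genes chosen for gaps between single libraries, in TPT, VcKO and control libraries. Most rows have 1 library apart, such as Satb1 low and Amph high in TPT 2 and Rbm24 and Bmpr1a high in TPT 4.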

How the data were processed

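The authors deposited FPKM values per gene, in 1 table for the 8-week groups and 1 for the Vav groups at 4 weeks. Labels' protocols name RNeasy mini kits and NuGEN Ovation Ultralow libraries. The submitters' notes on processing list mm10, DESeq2, HTSeq 0.6.1, STAR and Trimmomatic 0.33 with no role or order. Gene lengths and strand use are not given in the sources used here, so antisense and overlapping genes cannot be told apart. Of 43430 genes, 42462 matched a GENCODE symbol of mm10. Values close to a whole multiple of 1 read made up 50.6% to 57.1% of low values, too few to recover counts.

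The deposited values were turned into log2(FPKM + 1) and tested with limma 3.58.1 (trend, R 4.3.3, Benjamini-Hochberg adjusted p under 0.05) for genes with 1 FPKM or more in 3 of the 7 libraries. Fold changes are TPT minus VcKO in log2(FPKM + 1), so they understate low genes. Named genes are Tcf3, the 10 largest called changes each way or, since none passed, the 10 smallest p, leaving out predicted genes, pseudogenes, small RNAs and receptor segments, and the first 3 tested members of each list described. Other genes were named after their values were seen. Some members of the lists are not reported here. The members and lists were chosen with earlier results of these data known. Single values per library used exact permutation tests (scipy 1.17.1). The model was tested on simulated data. Alternatives were another pseudocount, filters, scalings, weights, robust variances, a replicate block, all 10 libraries, chromosome 15 or each library left out, and the libraries with Ddx3y only.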

Additional observations from a re-analysis of the deposited data

Results flagged for a closer look

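In groups of 4 libraries, a value was singled out where its gap to the nearest other, as a share of the range, exceeded Dixon's critical value, which chance passes in about 1 of 20 groups. Of 86 measures read in TPT, 15 were singled out, and the genes chosen for such gaps are among them. All values are log2(FPKM + 1) unless stated.

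TPT replicate 3 was the lone high library for Tcf3 (1.73), Mex3a (4.99) and Edaradd (4.57), and the lone low one for the list medians of S phase (-1.07) and mitosis (-2.09), given against controls. TPT replicate 2 was alone for Cd28 (2.35), Amph (5.91) and Gpr82 (4.76). TPT replicate 4 was alone for Igsf23 (5.99), Bmpr1a (2.67) and Nova1 (1.09), and for Rpl39l (0.0644), where the other 3 were at 0. TPT replicate 1 was alone for Junb (4.71), for the T cell leukaemia list median (-0.41) and for the chromosome 8 median (0.450).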

How the results depend on the processing

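Under all 19 alternatives 0 genes were called each way (0 to 0 with a library left out). Counts at an unadjusted p under 0.05, 244 higher and 102 lower, ranged from 120 to 382 and from 61 to 257 with a library left out. They were 431 and 220 with all 10 libraries in the fit, 464 and 275 with array weights, 361 and 371 with no filter, 133 and 58 at a mean of 5 FPKM, and 600 and 640 in the libraries with Ddx3y, which were chosen after seeing the data. Correlations of deviations between TPT and VcKO libraries of the same number were -0.02, 0.12 and -0.05 for numbers 1 to 3. Those of unlike numbers ran from -0.15 to 0.16, so this check cannot decide whether numbers pair the libraries. The replicate block gave 0 calls each way and 224 and 138 genes at an unadjusted p under 0.05. Tcf3 and the 20 genes of smallest p kept their direction in all 388 alternative values. Other genes named were not followed across alternatives.

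Of the list medians, 464 alternative values moved by less than the spread between replicates and 7 by more. These were E proteins with array weights (-0.49), immediate early and heat shock genes with a pseudocount of 0.1 (-1.18), cytokine signalling without TPT replicate 3, where single libraries left out gave -0.045 to 0.24, and, in the libraries with Ddx3y, the double-positive stage (0.17), BCL2 family (0.17), cytokine signalling (0.34) and mitochondrially encoded genes (0.25). The cause was not tested. The difference in leading Trbv share was -4.95 to 18.3 with a library left out. Counts of genes apart in 1 library moved most with a pseudocount of 0.1, to 90, 338, 444 and 158 above all others in TPT and 41, 97 and 60 in VcKO, and to 84, 126, 835 and 99 below all others in TPT and 13, 47 and 20 in VcKO. Depth limits low genes, which the scale also compresses.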
